A study of Mus musculus with 39 samples.

Results

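The cytochrome P450 genes measured in liver were taken as the genes whose symbol is Cyp, a number, 1 letter and a number. Each was represented by 1 probe set, the brightest over the liver arrays, and was kept where its mean over those arrays was at least 6 on the log2 intensity scale. Of 18193 genes with a probe set named by 1 symbol, 70 matched the pattern and 46 passed the floor, and all 46 were among the 12735 genes tested in liver. Both groups entered the mean, so the floor did not use the contrast. The 46 genes had 62 probe sets, and 13 of them had more than 1. The lowest members were Cyp4a14 at 6.38 and Cyp4a31 at 6.61, and the highest genes left out were Cyp2g1 at 5.56 and Cyp4f16 at 5.45.

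RNA was measured on 39 Affymetrix arrays from B6C3F1 mice, the offspring of C57BL/6 and C3H parents, and the 16 liver arrays are the ones used here unless spleen or bone marrow is named. The vehicle group held 8 livers of control mice and the hypoxia group 8 livers of mice kept under reduced oxygen, both for 2 hours, and no allele or transgene is named for either. Mice of both groups were under ketamine and acepromazine at death, and a piece of the left lateral lobe was taken. The labels name no vehicle substance, oxygen level, age or sex, and do not say whether livers of 1 group came from separate mice, so p-values measure only how these samples vary, which may be technical variation. In a piece of whole liver, fewer cells of a type and less RNA per cell cannot be told apart.

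Cytochrome P450 enzymes are heme proteins that use molecular oxygen and electrons from NADPH to oxidise small molecules. Families 1 to 3 handle most drugs, toxicants and odorants in the liver, family 4 hydroxylates fatty acids and eicosanoids, and other families make or break down bile acids, steroids, vitamin D and retinoic acid. Hepatocytes carry most of the liver's P450 protein, and transcription of many of these genes depends on nuclear receptors, on the hepatocyte factors of the HNF and C/EBP groups, and on inflammatory signals, which are known to lower many of them.

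After 2 hours of reduced oxygen 8 of the 46 P450 transcripts fell and 1 rose, at an adjusted p under 0.05 in limma with the Benjamini-Hochberg method over all genes tested. Of all 12735 genes 7.22% fell and 3.88% rose. Among the 9732 genes that reached the same floor as the members, 8.42% fell and 4.37% rose. Those that fell were Cyp2d13, Cyp2c23, Cyp2c54, Cyp2d22, Cyp4f15, Cyp2u1, Cyp4b1 and Cyp4f14, by 1.22-fold to 1.84-fold, and Cyp3a13 rose 1.36-fold. The median change of the members was -0.14 on the log2 scale, and 34 of 46 (73.9%) lay below 0, which became 31 after quantile normalization and 32 with array medians centred. Over all genes tested the median was -0.03 and 59.4% lay below 0, and 60.6% did among genes that reached the floor. The hypoxia and vehicle arrays did not overlap at all in 2 members, against 2.84% of all genes tested.

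**Figure D1:**
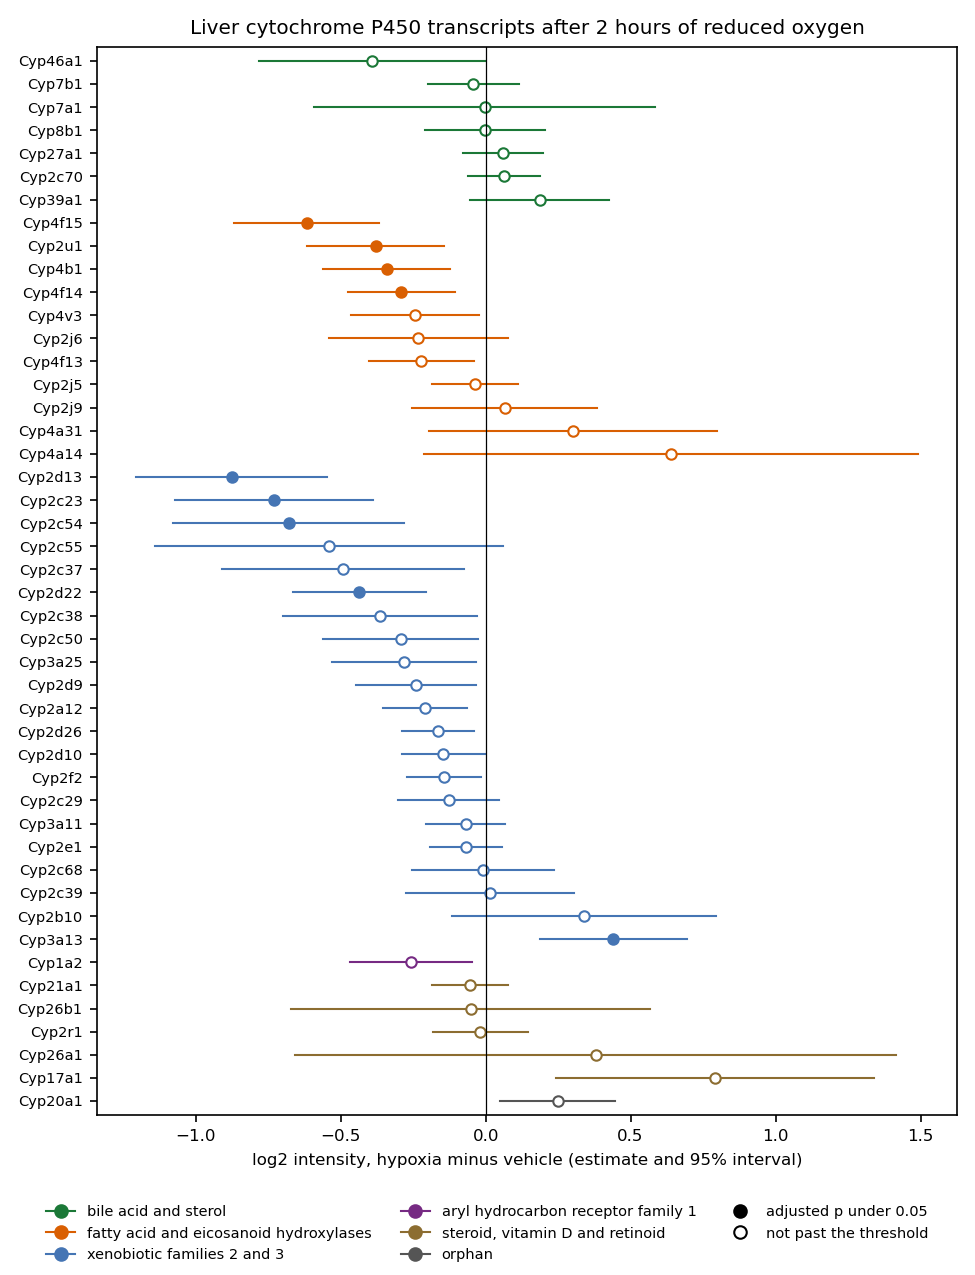
Change of each of the 46 P450 genes in liver, as log2 intensity of 8 hypoxia minus 8 vehicle arrays (x axis), with genes on the y axis grouped by role. Circles are limma estimates, lines are 95% intervals, and filled circles mark the 9 genes with an adjusted p under 0.05, of which only Cyp3a13 lies to the right of 0.

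Of families 2 and 3, 21 genes were grouped as drug-metabolising, with Cyp2c70, Cyp2r1, Cyp2u1 and the Cyp2j genes counted under other roles. Among these 21, 4 fell, 1 rose and 18 lay below 0 (17 after quantile normalization), where 60.6% of all genes at the floor did. Of those genes at the floor 8.42% fell and 4.37% rose. Cyp2d13, a mouse Cyp2d enzyme, lay between 9.71 and 10.74 in the vehicle livers (median 9.99) and between 8.72 and 9.61 in the hypoxia livers (median 9.17). Every hypoxia liver was below every vehicle liver. Its log2 change was -0.88 ± 0.16 (SE, n = 8 per group; adjusted p = 0.000824 in limma), and a weaker second probe set of the gene gave -0.84. Cyp2d22, a relative of the main human drug-metabolising Cyp2d enzyme, lay between 10.69 and 10.93 in vehicle livers (median 10.84) and between 9.97 and 10.85 in hypoxia livers (median 10.27). In 6 of 8 hypoxia livers it was below the vehicle range. Its change was -0.44 ± 0.11 (SE; adjusted p = 0.0137 in limma), and the mean of its 2 probe sets gave an adjusted p of 0.0526. The other 3 Cyp2d genes, Cyp2d9, Cyp2d10 and Cyp2d26, changed by -0.24, -0.15 and -0.16 and did not pass the test. Cyp2d26 passed in some alternatives, among them the exact Wilcoxon test (adjusted p = 0.0185) and quantile normalization (0.0283 in limma). It did not with the replicate block (0.0615 in limma). All 5 Cyp2d genes thus lay below 0, also after quantile normalization and with array medians centred.

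The Cyp2c subfamily, whose enzymes oxidise drugs and convert arachidonic acid to epoxides, had 10 members, Cyp2c70 included. Of these 2 fell and 8 lay below 0 (7 after quantile normalization). Among all genes at the floor 8.42% fell and 60.6% lay below 0. Cyp2c23, an arachidonic acid epoxygenase, lay in a narrow range in vehicle livers, from 11.30 to 11.62 (median 11.38). In hypoxia livers it spread from 10.09 to 11.39 (median 10.70), below the vehicle range in 7 of 8. The change was -0.73 ± 0.16 (SE; adjusted p = 0.00567 in limma). Its probe set has a suffix that marks possible matches to several transcripts, and the gene had no other probe set. Cyp2c54, another epoxygenase, lay between 11.52 and 12.24 in vehicle livers (median 12.01) and between 10.43 and 11.92 in hypoxia livers (median 11.37), with 5 of 8 below the vehicle range. Its change of -0.68 ± 0.19 (SE) had an adjusted p of 0.025 in limma, which became at most 0.0551 when hypoxia replicate 3 or 8 was left out, and 0.0635 by the exact Wilcoxon test. Cyp2c37 and Cyp2c55 had changes of -0.49 (adjusted p = 0.124 in limma) and -0.54 (0.264), with hypoxia livers spread from 9.50 to 11.22 and from 6.87 to 8.90. Cyp2c genes are close copies of each other, and probe sets may share signal between them.

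Cyp3a13, a Cyp3a enzyme of liver and gut, was the only member that rose. It lay between 10.15 and 10.40 in vehicle livers (median 10.24) and between 10.18 and 11.14 in hypoxia livers (median 10.74), above the vehicle range in 6 of 8. The change was 0.44 ± 0.12 (SE; adjusted p = 0.0227 in limma, 0.103 by the exact Wilcoxon test). The main hepatic Cyp3a enzyme, Cyp3a11, changed by -0.07 ± 0.06 (SE) and Cyp3a25 by -0.28 ± 0.12, neither past the test. The ethanol- and acetaminophen-oxidising Cyp2e1 changed by -0.07, with an interval of -0.19 to 0.06, and the naphthalene-oxidising Cyp2f2 by -0.14, with an interval of -0.27 to -0.02 and an adjusted p of 0.143. Cyp3a11, Cyp2e1 and Cyp2f2, with Cyp2c70 and Cyp7b1, had the brightest probe sets of the 46, with liver means from 13.65 to 14.48. None of these 5 passed the test, where 8.42% of all genes at the floor fell and 4.37% rose. Cyp2a12 changed by -0.21 ± 0.07 (SE; adjusted p = 0.0599 in limma), and the constitutive Cyp1a2, the aryl hydrocarbon receptor target that metabolises caffeine, by -0.26 ± 0.10 (0.11). In some alternatives Cyp2a12 passed, among them the exact Wilcoxon test (adjusted p = 0.0259) and quantile normalization (0.0418 in limma). It passed in neither replicate set alone (0.349 and 0.0816 in limma).

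Among the 11 fatty acid and eicosanoid hydroxylases and epoxygenases 4 fell, none rose and 8 lay below 0. Of all genes at the floor 8.42% fell, 4.37% rose and 60.6% lay below 0. Cyp4f15, of a subfamily that inactivates leukotrienes by omega-hydroxylation, lay between 10.59 and 11.22 in vehicle livers (median 10.74) and between 9.83 and 10.51 in hypoxia livers (median 10.15). As with Cyp2d13, no hypoxia liver reached the vehicle range. The change was -0.62 ± 0.12 (SE; adjusted p = 0.00169 in limma). Its neighbour in the subfamily, Cyp4f14, changed by -0.29 ± 0.09 (adjusted p = 0.0391), from 11.31 to 11.70 in vehicle livers (median 11.49) to 10.98 to 11.49 in hypoxia livers (median 11.15). The third Cyp4f member, Cyp4f13, changed by -0.22 ± 0.09 without passing the test (0.113), so all 3 lay below 0, under every scaling tried.

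Cyp2u1, a long-chain fatty acid hydroxylase, lay between 8.07 and 8.47 in vehicle livers (median 8.15) and between 7.37 and 8.28 in hypoxia livers (median 7.78). It fell by 0.38 ± 0.11 (SE; adjusted p = 0.0352 in limma), with 6 of 8 hypoxia livers below the vehicle range. Cyp4b1, which acts on fatty acids and some toxicants, went from 7.59 to 8.39 in vehicle livers (median 7.80) to 7.34 to 7.65 in hypoxia livers (median 7.47), a change of -0.34 ± 0.10 (adjusted p = 0.0401 in limma). These calls were close to the threshold. Leaving out 1 of the 16 livers ended the call of Cyp4f14 in 11 cases, of Cyp4b1 in 9 and of Cyp2u1 in 8, and centring the array medians ended all 3, as did the exact Wilcoxon test (adjusted p = 0.103 for each). Cyp4a14 and Cyp4a31, targets of the fatty acid receptor PPARα, lay above 0, by 0.64 ± 0.41 and 0.30 ± 0.24, and did not pass the test (adjusted p = 0.367 and 0.493 in limma). Both groups of Cyp4a14 spanned a wide range, with vehicle livers from 5.17 to 7.90 and hypoxia livers from 5.25 to 7.72.

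The Cyp4f pair that fell is shown by its RefSeq promoter windows (250 bases before to 50 after a start site, GRCm38.p6), because both genes lie on chromosome 17 and moved the same way. Windows were searched on both strands for 5 short motifs: the nuclear receptor half-site AGGTCA, the HNF4-type element CAAAGTNCA, the hypoxia response core ACGTG, the C/EBP-type element TTGCNNAA and the HNF1 half-site GTTAAT. Capitals mark matches: in this Cyp4f14 window 1 C/EBP-type element 50 bases and 1 HNF1 half-site 31 bases before the start site, and in the Cyp4f15 window none.
Cyp4f14, chr17:32917038-32917337, minus strand: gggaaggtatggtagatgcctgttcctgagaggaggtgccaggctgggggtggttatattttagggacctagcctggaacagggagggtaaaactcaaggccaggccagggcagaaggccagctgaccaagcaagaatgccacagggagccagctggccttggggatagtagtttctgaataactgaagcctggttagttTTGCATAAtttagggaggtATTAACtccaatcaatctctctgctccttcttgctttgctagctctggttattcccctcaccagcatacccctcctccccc
Cyp4f15, chr17:32685409-32685708, plus strand: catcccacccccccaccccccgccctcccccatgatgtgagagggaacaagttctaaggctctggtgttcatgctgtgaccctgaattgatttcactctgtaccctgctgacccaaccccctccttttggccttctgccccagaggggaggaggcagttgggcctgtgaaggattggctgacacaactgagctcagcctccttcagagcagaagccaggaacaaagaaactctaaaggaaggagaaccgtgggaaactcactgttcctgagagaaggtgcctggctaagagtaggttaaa
Of the 9 called members 4 had a window, the others being Cyp3a13 and Cyp4b1, which held no match either. Cyp4f14 has 3 further annotated start sites in the table, whose windows overlap and share 1 C/EBP-type element. That element was present in 10.8% of all 32851 windows and in the windows of 6 of the 34 members that had one.

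The 7 bile acid and sterol enzymes had no call in either direction, where 8.42% of all genes at the floor fell and 4.37% rose. A group of 7 is too small to be set apart from those shares. Cyp7a1, the rate-limiting enzyme of bile acid synthesis, lay between 8.52 and 10.94 in vehicle livers (median 9.65) and between 8.82 and 10.31 in hypoxia livers (median 9.89). The groups overlapped fully, and the difference was 0.00 ± 0.28 (SE) with an interval of -0.59 to 0.58. It was -0.47 in replicates 1 to 4 and 0.46 in replicates 5 to 8, without a passed test between the sets (adjusted p = 0.596 in limma). A weaker second probe set of Cyp7a1 gave 0.23. Cyp8b1, which sets the share of cholic acid, was measured more tightly: vehicle livers ran from 11.93 to 12.30 (median 12.11), hypoxia livers from 11.63 to 12.37 (median 12.17), and the difference was 0.00 with an interval of -0.21 to 0.21. Cyp27a1, the first enzyme of the alternative pathway, differed by 0.06 ± 0.07 and Cyp7b1, which follows it, by -0.04 ± 0.08. Cyp2c70, the enzyme that makes muricholic acids in mice, differed by 0.06 ± 0.06 and Cyp39a1, an oxysterol hydroxylase, by 0.19 ± 0.11. Cyp46a1, best known as the cholesterol hydroxylase of neurons, lay at -0.39 ± 0.19 (adjusted p = 0.202 in limma). The median of the group changed sign with the scaling, from 0.00 as deposited to 0.01 after quantile normalization.

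No steroid, vitamin D or retinoid enzyme among 5 passed the test, where 8.42% of all genes at the floor fell and 4.37% rose. Cyp17a1, the steroid hydroxylase and lyase of androgen synthesis, had the largest positive difference of the 46 genes, 0.79 ± 0.26 (SE), with an adjusted p of 0.0584 in limma. Its vehicle livers lay between 6.60 and 7.84 (median 7.03) and its hypoxia livers between 6.97 and 8.88 (median 8.01), with 5 of 8 above the vehicle range. Cyp26a1, the retinoic acid hydroxylase, had the widest spread in vehicle livers, from 7.02 to 10.73 (SD 1.28), followed by Cyp4a14 (SD 0.88) and Cyp7a1 (SD 0.78). In hypoxia livers Cyp26a1 spanned 7.90 to 10.75, so the difference of 0.38 ± 0.50 was smaller than its error. Cyp26b1 and the vitamin D hydroxylase Cyp2r1 differed by -0.05 ± 0.30 and -0.02 ± 0.08, and the orphan Cyp20a1 by 0.25 ± 0.09 (adjusted p = 0.102 in limma).

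P450 transcripts were low in the same few hypoxia livers. In hypoxia replicates 3, 6, 7 and 8, 28, 27, 22 and 27 of the 46 genes were below all 8 vehicle livers. In replicates 1, 2, 4 and 5 the counts were 6, 10, 14 and 7. As a share of the members these were 60.9%, 58.7%, 47.8% and 58.7%, against 13%, 21.7%, 30.4% and 15.2%. Among all genes that reached the floor the corresponding shares were 22.3%, 32.2%, 35.3% and 32.4%, against 14.6%, 15.8%, 14.8% and 30.9%. The share of members was thus above that of all genes at the floor in hypoxia livers 2, 3, 4, 6, 7 and 8, and below it in livers 1 and 5. In hypoxia livers 1 to 8 the members above all vehicle livers numbered 8, 3, 6, 2, 6, 4, 3 and 5 of 46. Among all genes at the floor the shares above were 12.8%, 15.2%, 25%, 21.3%, 7.99%, 12.4%, 11.1% and 11.8%.

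**Figure D2:**
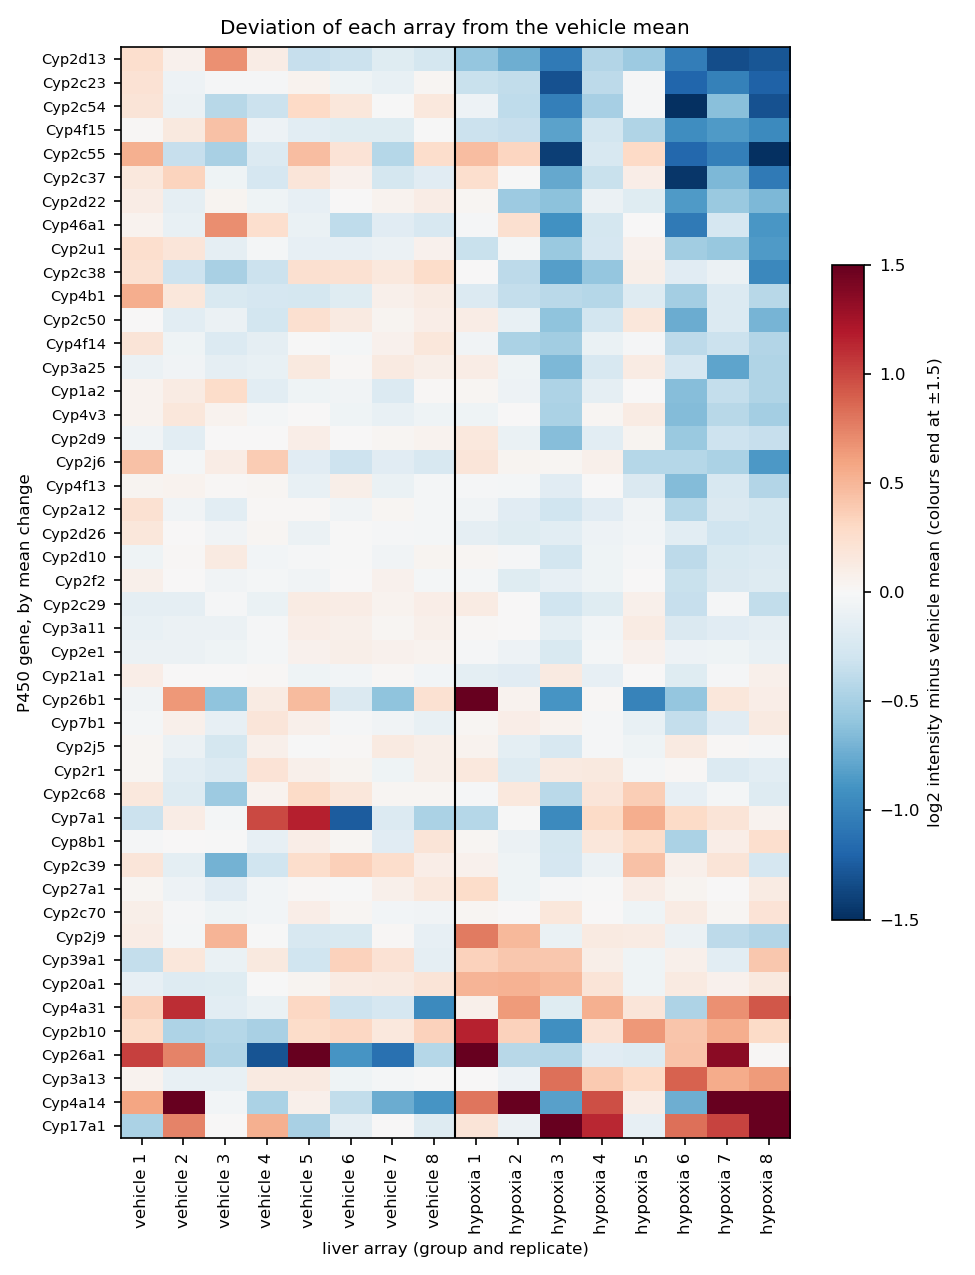
Deviation of each of 46 P450 genes (rows, ordered by mean change) from its mean over the vehicle livers, for each of 16 liver arrays (columns), in log2 intensity, with the colour scale ending at ±1.5. The blue block of lower values is densest in hypoxia replicates 3, 6, 7 and 8 and faint in 1 and 5.

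The same livers were high in acute phase genes, plasma protein and defence genes that hepatocytes induce in inflammation. This list of 17 genes was chosen after their values had been seen. All 17 lay above 0 in hypoxia and 5 rose (Saa3, Saa4, Orm3, Lcn2 and Serpina3n). Of all genes tested 3.88% rose and 59.4% lay below 0. Lcn2, an iron-binding defence protein, was 13.81, 13.81, 13.00 and 13.33 in hypoxia replicates 3, 6, 7 and 8. It was 7.15, 7.08 and 7.07 in replicates 1, 2 and 5, and 11.83 in replicate 4. In vehicle livers it ran from 6.03 to 9.91. The summed intensity of the 17 genes ran from 161573 to 214132 in vehicle livers and from 163180 to 339965 in hypoxia livers. The neutrophil marker S100a8 was 6.68 to 8.49 in the 4 livers, 4.59 to 5.69 in the other hypoxia livers and 4.09 to 4.82 in vehicle livers. Of the 3 neutrophil genes measured S100a8 and S100a9 rose and Ngp, at 4.90 and 4.96, did not. The part of either list in the P450 result was not tested.

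Vehicle livers also differed in acute phase level, between replicate sets. Saa2, an acute phase serum amyloid, was 12.09 to 13.36 in vehicle replicates 1 to 4 and 8.93 to 9.53 in vehicle replicates 5 to 8. Cyp2c23 was 11.33 to 11.62 in the first set and 11.30 to 11.46 in the second. Cyp2d13 was 10.11 to 10.74 in the first set and 9.71 to 9.87 in the second. Other members were lower in the first set. Cyp2c50 was 12.64 to 12.92 there and 12.95 to 13.15 in the second set. Cyp3a11 was 14.41 to 14.50 and 14.55 to 14.62. A relation of P450 to acute phase level among vehicle livers was not tested. Saa2 in hypoxia replicates 1 and 2, at 9.72 and 10.11, was lower than in the vehicle livers of the same set.

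**Figure D3:**
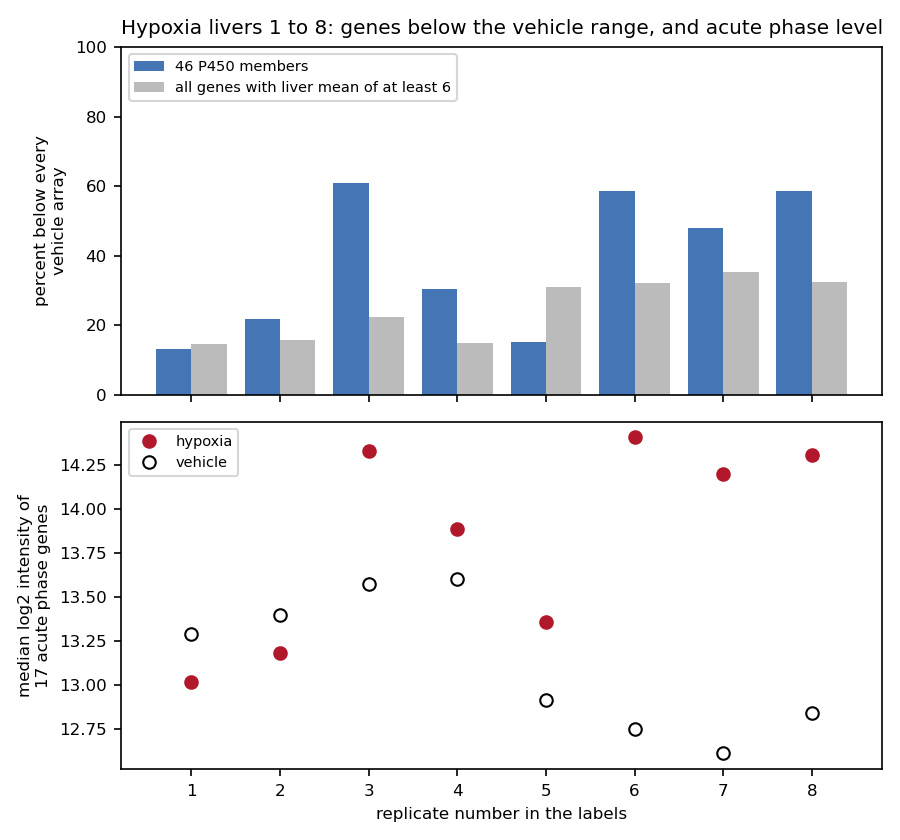
Upper panel: percent of the 46 P450 genes (blue) and of all genes with a liver mean of at least 6 (grey) that lie below all 8 vehicle livers, for hypoxia replicates 1 to 8. Lower panel: median log2 intensity of 17 acute phase genes in each hypoxia (filled) and vehicle (open) liver of the same number. The 3 livers with the highest blue bars (3, 6 and 8) also have the 3 highest filled points.

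The uneven response showed as a wider spread. The SD between hypoxia livers exceeded that between vehicle livers for 37 of 46 members (80.4%), against 63.8% of all genes that reached the floor. The median ratio of the SDs was 1.53 for members and 1.16 for those other genes. Cyp2c23 had the largest ratio, 4.91, with SDs of 0.10 in vehicle and 0.51 in hypoxia livers. Cyp2d9 (3.60) and Cyp3a13 (3.58) followed. Cyp4b1 had the smallest, 0.43, its vehicle SD of 0.28 resting partly on vehicle replicate 1, at 8.39. These are descriptions, with no test of the ratios.

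**Figure D4:**
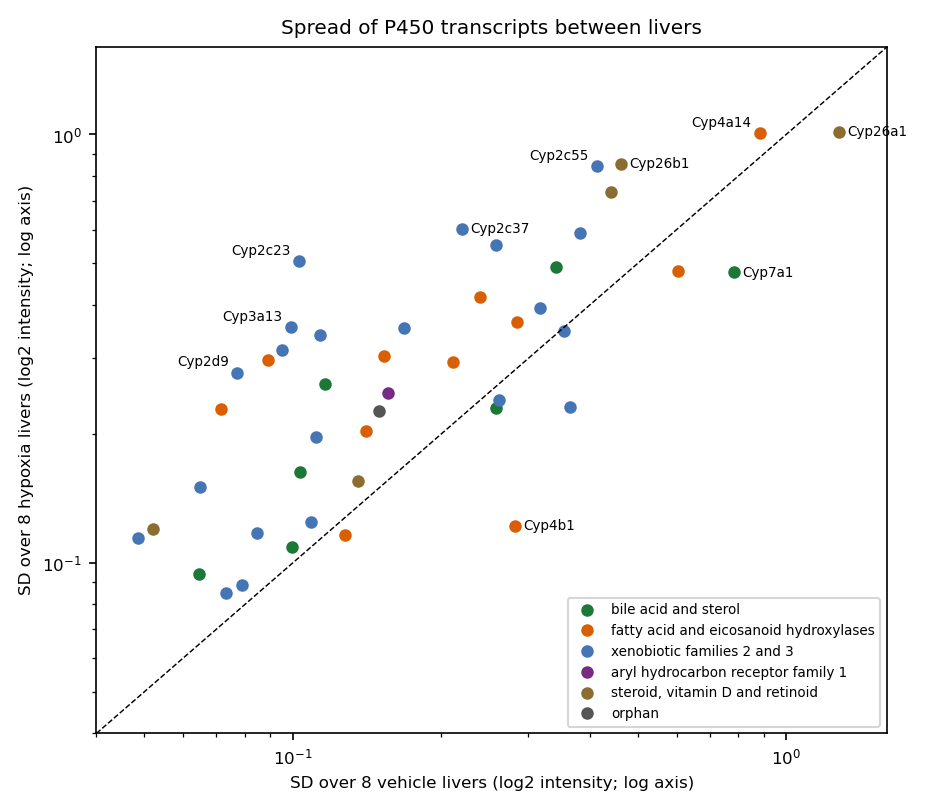
SD of each of 46 P450 genes over 8 vehicle livers (x axis) and 8 hypoxia livers (y axis), both in log2 intensity on log axes, coloured by role, with the line of equal SD dashed. Most points, 37 of 46, lie above the line, Cyp2c23 the farthest, and Cyp4b1 lies the farthest below it.

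Livers with replicate numbers 1 to 4 and 5 to 8 stand apart in the 30th percentile of array intensity, which was 4.15 to 4.23 in the first set and 4.28 to 4.30 in the second, and the labels name no batch. All 9 calls had the same sign in both sets. Fitted alone, replicates 1 to 4 gave 3 calls (Cyp2d13, Cyp4f15 and Cyp20a1, with 5.96% of all genes called), and replicates 5 to 8 gave 9 (15.1% of all genes), of which 7 were among the 9 of the full fit. The response of Cyp2c54 was -0.34 in the first set and -1.02 in the second, and that of Cyp20a1 0.55 and -0.05. The test of the difference between sets called no member and 0% of all genes in limma, with 1 member at an unadjusted p under 0.05. With the set as a covariate 15 members passed (2 higher, 13 lower), and with the replicate number as a block 14 did (2 higher, 12 lower), against 21% and 18.7% of all genes. All 9 calls were kept in both. The block added Cyp17a1 (higher, adjusted p = 0.0349), Cyp2a12 (0.0195), Cyp2c37 (0.0412), Cyp2c38 (0.0377) and Cyp2j6 (0.0416), all from limma.

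P450 enzymes need heme and electron donors. Of 17 such genes tested 2 rose and 2 fell, where 3.88% of all genes tested rose and 7.22% fell. Alas1, the rate-limiting enzyme of heme synthesis, lay between 8.45 and 11.80 in vehicle livers (median 9.77) and between 11.11 and 12.26 in hypoxia livers (median 11.71). It rose by 1.80 ± 0.33 (SE; adjusted p = 0.00116 in limma), about 3.49-fold, although the highest vehicle livers reached the hypoxia range. Hmox1, which degrades heme, was 6.89 to 7.14 in vehicle livers (median 6.94) and 7.40 to 10.12 in hypoxia livers (median 7.79), with no overlap. It rose by 1.08 ± 0.27 (adjusted p = 0.0126 in limma), and the highest value belonged to replicate 3. The electron carrier Cyb5r3 fell by 0.30 ± 0.08 and Fech, the last enzyme of heme synthesis, by 0.21 ± 0.06. The P450 reductase Por was not analysed here.

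Of 30 nuclear receptors and transcription factors known to act on P450 genes 3 rose and 6 fell (15 passed with the replicate block). Of all genes tested 3.88% rose and 7.22% fell, and 18.7% passed with the block. The hepatocyte pioneer factors Foxa1 and Foxa2 fell by 1.93 ± 0.13 and 1.38 ± 0.16, and Cebpa by 0.51 ± 0.10. Cebpb, the inducible C/EBP factor of the acute phase, rose by 1.24 ± 0.11, Nfil3 by 1.04 ± 0.19 and Ppard by 1.28 ± 0.25. Ppara, the receptor behind Cyp4a induction, fell by 0.45 ± 0.10 (adjusted p = 0.00709 in limma), from 10.72 to 11.25 in vehicle livers to 10.22 to 10.97 in hypoxia livers. The xenobiotic receptors did not pass in the fit without the block: Nr1i3 (CAR) differed by -0.30 ± 0.11 (adjusted p = 0.0938 in limma, 0.0399 with the replicate block) and Nr1i2 (PXR) by 0.37 ± 0.15 (0.113, with 0.0363 under the block and 0.0257 with the set as a covariate). Nr0b2, the bile acid responsive repressor SHP, differed by 0.18 ± 0.22 (0.69).

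HNF4α is a nuclear receptor on which much hepatocyte P450 transcription depends. Its element as searched stood in a window of 8 of the 34 members that had one (23.5%), and in 1.41% of all windows. The first share counts genes, which can have several windows, and the second counts single windows, so they are not fully alike. The second also covers all windows, and the share among other genes that reached the floor in liver was not computed. Paralogs such as Cyp2c37 and Cyp2c50 share the surrounding sequence. Differences of the 8 genes with a match ran from -0.49 for Cyp2c37 to 0.38 for Cyp26a1. None of the 8 passed the test, where 7.22% of all genes fell and 3.88% rose. Only 4 of the 9 called members had a window, so the other called members could not be among the 8. In other fits Cyp2c37 passed with the replicate block (adjusted p = 0.0412 in limma) and Cyp2d26 with the replicate set as a covariate (0.0272). The stretches of 6 are given from RefSeq (GRCm38.p6), with the element in capitals, since they hold the motif in which members differ most from other windows among the 5 searched.
Cyp2c37, chr19:39992341-39992389, plus strand: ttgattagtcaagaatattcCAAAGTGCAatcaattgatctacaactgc
Cyp2c50, chr19:40089598-40089646, plus strand: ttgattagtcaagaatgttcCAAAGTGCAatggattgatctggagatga
Cyp2c70, chr19:40187322-40187370, minus strand: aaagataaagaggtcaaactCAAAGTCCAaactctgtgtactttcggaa
Cyp2d26, chr15:82794275-82794323, minus strand: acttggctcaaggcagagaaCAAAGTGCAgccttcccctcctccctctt
Cyp3a11, chr5:145879935-145879983, minus strand: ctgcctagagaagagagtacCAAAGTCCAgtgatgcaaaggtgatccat
Cyp8b1, chr9:121916344-121916392, minus strand: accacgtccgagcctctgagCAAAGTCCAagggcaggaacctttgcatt
The other 4 motifs differed less. AGGTCA stood in a window of 20.6% of these members and in 16.3% of all windows. For ACGTG the shares were 17.6% and 19.6%, for TTGCNNAA 17.6% and 10.8%, and for GTTAAT 8.82% and 7.1%. A match is a string of letters and not a shown binding site.

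Genes of the same metabolic routes that are not P450s were followed through lists. Of 47 genes of conjugation and other drug metabolism 6 fell and 1 rose, and 43 lay below 0, with a median of -0.26. Of all genes tested 7.22% fell, 3.88% rose and 59.4% lay below 0. With the replicate block 14 of the 47 passed, where 18.7% of all genes did. Those that fell included Nat2, an arylamine acetyltransferase, by 0.79 ± 0.10, the fatty aldehyde dehydrogenase Aldh3a2 by 0.74 ± 0.20, the aldehyde oxidase Aox3 by 0.47 ± 0.13 and the sulfotransferase Sult2a8 by 0.29 ± 0.08. Fmo5, a flavin monooxygenase, rose by 0.36 ± 0.08 (adjusted p = 0.003 in limma). Of 22 bile acid genes other than P450s 2 fell, the efflux pump Abcc3 by 0.60 ± 0.17 and the bile acid ligase Slc27a2 by 0.26 ± 0.07, and none rose (6 passed with the block).

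Hepatocyte markers were high in both groups. Alb was at 15.07 in vehicle and 15.06 in hypoxia livers, and of 7 hepatocyte markers only Tat, a hormone-induced amino acid enzyme, passed the test, rising by 1.05 ± 0.13. Of 7 markers of pericentral hepatocytes, the zone in which many P450 genes are strongest, 1 passed, Axin2, which fell by 0.67 ± 0.08. Glul was at 12.47 in vehicle and 12.50 in hypoxia livers, and Oat at 12.17 and 12.37. Of 5 periportal markers Ass1 rose by 1.80 ± 0.20 and Hal fell by 0.43 ± 0.11. Of 5 Kupffer cell markers all lay above 0 and none passed, with a summed intensity of 2115 to 3749 in vehicle and 1843 to 5471 in hypoxia livers. Lyve1 rose among 4 endothelial markers, and no stellate or cholangiocyte marker passed, nor did the 1 erythroid marker tested. Of all genes tested 7.22% fell and 3.88% rose, and these marker lists are short. With the replicate block, which called 18.7% of all genes, the markers Marco (Kupffer, adjusted p = 0.0381), Lrat (stellate, 0.0421) and Alas2 (erythroid, 0.0268) also passed in limma. The part of these cells in the P450 changes was not tested.

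Few members could be tested outside the liver, since most lay below the filter on dim genes there. In spleen 13 members were tested and 3 passed, where 19.4% of all genes did: Cyp26b1 rose by 0.61 ± 0.18 and Cyp20a1 by 0.21 ± 0.07, and Cyp4v3 fell by 0.32 ± 0.10. In bone marrow, with 3 vehicle and 4 hypoxia arrays, 16 were tested and 0 passed in limma, with 1 at an unadjusted p under 0.05, where 7.69% of all genes passed. The response differed between liver and spleen for 1 of 13 members, against 7.38% of 11377 genes. This was Cyp2d22, with a difference of -0.60 ± 0.16 (liver minus spleen, SE; adjusted p = 0.0175 in limma), on the probe set used for liver. Cyp39a1 differed by 0.67 ± 0.23 (adjusted p = 0.0739 in limma, 0.0496 with the replicate block) and Cyp4b1 by -0.68 ± 0.25 (0.0927).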

How the data were processed

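The authors deposited 1 linear intensity per probe set and array, and the submitters' processing notes name RMA and limma, with no version given. Deposited intensities ran from 5.78 to 43830 and were converted to log2 with no offset. Array medians ran from 5.21 to 5.33 in liver. Of 45101 probe sets, 34945 had 1 symbol in the platform annotation, 932 several and 9211 none. The 64 control probe sets, of which 51 are among those with none, were left out. Cyp3a41a, Cyp2a4, Cyp2a5 and other P450 genes that share a probe set with several symbols were not named. The brightest probe set stood for each gene, and genes under the 30th percentile of liver means were left out as dim.

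Liver was fitted with limma 3.58.1 in R 4.3.3 (lmFit and eBayes, two-sided, no covariate), with Benjamini-Hochberg adjustment over 12735 genes and a threshold of 0.05. Values after ± are standard errors unless named SD, intervals are 95%, and the number of arrays limits the precision. Spleen and bone marrow were fitted apart, and differences between tissues or replicate sets were interaction contrasts. On simulated data of this comparison 98% of changes of 1 on the log2 scale and 80% of changes of 0.5 were recovered, with 3.78% false calls. The simulation gave both groups the same SD and no difference between replicate sets, unlike these livers, so its rates need not hold here. The members, lists and alternatives were chosen with earlier results of these data known. Named were the called members, the bile acid group, the 5 brightest, the 3 of widest vehicle spread, the floor's neighbours, called interactions, up to 6 called genes per list by smallest p, and Por, Alas1, Hmox1, Nr1i2, Nr1i3, Ppara and Nr0b2. Other members, marker genes and acute phase genes with values were chosen after their values were seen. Same-numbered vehicle and hypoxia arrays had correlated deviations across genes (r from 0.166 to 0.535 in 8 pairs), which pairs the numbers by the rule used, although the labels name no shared animal. The mean r was 0.303 for same numbers and 0.262 for other numbers of the same replicate set. Only 4 of the 8 hypoxia arrays correlated best with their own number, so a pairing beyond the set was not shown. Alternatives changed normalization, centring, probe set choice, filter, variance prior, replicate set, block, floor, test and single arrays. Promoter windows are RefSeq's, and the array files name no genome build.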

Additional observations from a re-analysis of the deposited data

Results flagged for a closer look

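Single livers stood apart from their group in 5 of 92 groups of 8 tested, by the gap of the extreme liver to its nearest neighbour as a share of the group's range. Chance passes the 95% critical value of Dixon's test in about 1 group in 20. Cyp26b1 was highest in hypoxia replicate 1, at 8.41 (gap 0.566 of the range), and Cyp2b10 was lowest in hypoxia replicate 3, at 5.70 (0.548). In vehicle replicate 1 Cyp2a12 was at 13.07 (0.529) and Cyp2d26 at 13.67 (0.557), both the highest of their group. In vehicle replicate 3 Cyp2j9 was highest, at 7.64 (0.535). Without vehicle replicate 1 neither Cyp2a12 nor Cyp2d26 crossed the threshold.

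The response of Cyp2d22 differed between liver and spleen by -0.605 on the log2 scale, with a lower level under hypoxia in liver and no passed test in spleen, where another probe set of the gene gave 0.27 ± 0.13. Its liver probe sets gave -0.44 and -0.20.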

How the results depend on the processing

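The 9 members called in liver became 15 with the replicate set as a covariate, 14 with the replicate block and 3 within replicates 1 to 4. The 8 that fell became 13 with the set, 5 with array medians centred and 2 within replicates 1 to 4. The 1 that rose became 2 with quantile normalization, the set, the block or replicates 5 to 8 alone, and 0 by the exact Wilcoxon test, which called 6 members in all. Among all genes 1413 calls became 2668, 2385 and 759 with the set, the block and replicates 1 to 4. Members differing between liver and spleen went from 1 to 2 with the set or the block. Leaving out 1 liver gave 5 to 13 calls, 4 to 11 lower and 1 to 3 higher, 1071 to 1562 among all genes, and 1 to 2 for liver against spleen. The fewest followed the loss of hypoxia replicate 3 or 8 (5 each) and the most the loss of hypoxia replicate 1. No named member reversed while called. Floors of 5 and 7 gave 11 and 9 calls. The test of the replicate sets called 0 members in each alternative run. The block changed no other call of a named member than those given. The cause of these shifts was not tested, except that fits within a set use fewer samples.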

Other observations

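P450 genes outside the floor or the symbol pattern add to the picture. Cyp2g1, an olfactory and hepatic enzyme just under the floor, fell by 0.72 (adjusted p = 0.000259 in limma) and Cyp2d40 by 0.33 (0.0411), at liver means of 5.56 and 5.42, close to the dim end of the arrays. Of 24 genes under the floor 6 were bright enough to be tested. Cyp51, the lanosterol demethylase of cholesterol synthesis, whose symbol lacks the letter and second number of the pattern, lay at 0.26 ± 0.10 (adjusted p = 0.116), with vehicle livers from 9.98 to 10.82 and hypoxia livers from 10.53 to 11.01. Cyp4a12a, an omega-hydroxylase that male mice express strongly, lay at -0.10 ± 0.09 (0.525).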
